A study of Mus musculus with 9 samples.

Results

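The genes described here are 31 markers of endothelial cells and endocardium, taken by symbol from a list and not by their measured values, out of 48397 gene symbols counted in cardiac outflow tracts of mouse embryos. Of these, 28 are pan-endothelial genes, expressed in vessel lining generally, and 3 (Npr3, Nfatc1 and Emcn) were kept apart as endocardial genes. RNA sequencing libraries came from outflow tracts dissected at embryonic day 12.5 on a C57BL/6J background. There were 4 libraries of Nkx2-5+/+ wild types (called wild types 1 to 4) and 5 of Nkx2-5delta-enh/delta-enh littermates (deletions 1 to 5), which are homozygous for loss of an enhancer that drives the cardiac transcription factor gene Nkx2-5 in the anterior second heart field. A number in the name of each deposited count file was read as a litter, which is an assumption. By that number, litter 1 held wild types 1 and 2 and deletions 1 and 2, litter 2 held wild types 3 and 4 and deletions 3 and 4, and deletion 5 carries a number of its own. That number holds the digits of litter 2's in another order, so it could be a slip for litter 2, and both readings were run.

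Endothelial cells line all blood vessels, and the endocardium is the endothelium that lines the heart. Vascular endothelial growth factor (VEGF) receptors and the Tie receptors carry growth and stability signals into these cells, junction proteins such as VE-cadherin hold them together, and transcription factors of the ETS and SoxF families maintain their identity. In the outflow tract, endocardial cells overlying the cushions turn into cushion mesenchyme, the tissue from which the arterial valves form, and NFATc1 marks the endocardial cells that remain as valve lining.

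Between 27707435 and 49094225 reads per library were assigned to genes. Levels are given as CPM, read counts scaled to a common library size. Nkx2-5 itself stood at 18.8, 42.0, 45.0 and 39.5 CPM in wild types 1 to 4 and between 11.4 and 24.4 CPM in the deletions, so that wild type 1 lay among the deletions, with a log2 fold change of -1.05 (SE 0.26) that did not pass over all genes (edgeR adjusted p = 0.896). Deletion 2 held neuronal transcripts, with 7 neuron markers summing to 2668 CPM there and to between 75.2 and 129 CPM in the other 8 libraries. Markers of the tissue's own cells were present in every library, with sums of 7739 to 18373 CPM for 8 heart muscle genes, 2421 to 4072 CPM for 6 smooth muscle genes and 940 to 2739 CPM for 8 cushion mesenchyme genes.

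All 31 members passed the filter on low counts, and the lowest count of any member in any library was 142. To set genes side by side, CPM was divided by the length of each gene's merged exons. On this per-kilobase scale the members spanned from 1.84 CPM per kb for Erg, an ETS transcription factor of endothelium, to 67.6 CPM per kb for Cd34, a sialomucin of vessel lining and blood progenitors. Tek, the angiopoietin receptor Tie2, came next at a mean level of 53.8 CPM per kb (44.0 to 64.0 over the 9 libraries) and its range overlapped that of Cd34 (45.0 to 83.6). Its relative Tie1 was at 28.4 CPM per kb (21.5 to 38.2). Among VEGF receptor genes, Kdr (VEGFR2, the main signalling receptor) had a mean level of 11.2 CPM per kb, above Flt1 (VEGFR1, largely a decoy) at 4.86 and Flt4 (VEGFR3, the receptor for VEGF-C) at 4.47, and the ranges of Flt1 and Flt4 overlapped. Of the endocardial genes, Nfatc1 was the most abundant at 14.6 CPM per kb, followed by Emcn, the sialomucin endomucin, at 4.81 and Npr3, a clearance receptor for natriuretic peptides, at 2.46.

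**Figure D1:**
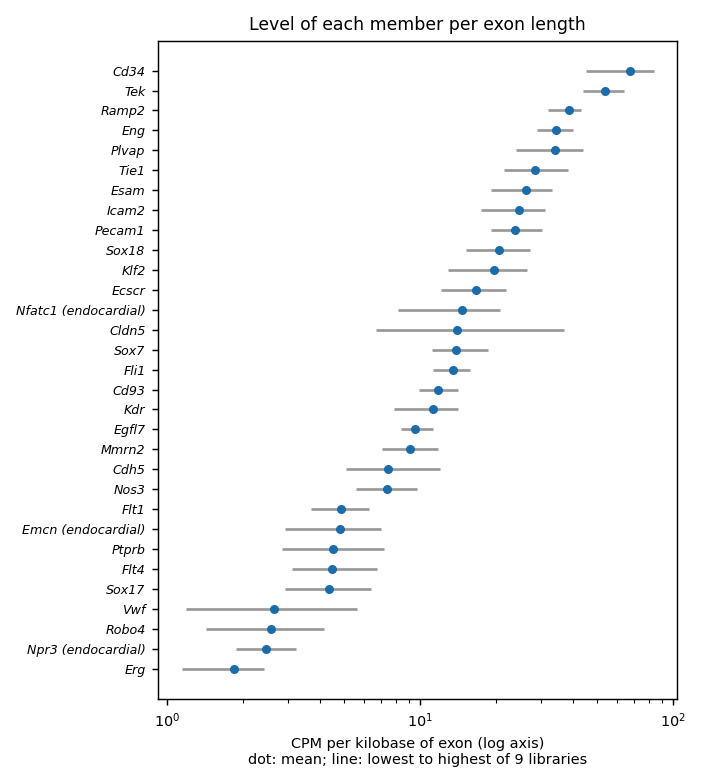
Level of each of the 31 members on a log axis, as CPM per kilobase of merged exon; dots are means and lines run from the lowest to the highest of 9 libraries. Cd34 (67.6) and Tek (53.8) lie at the top and Erg (1.84) at the bottom, and Tek and Ramp2 are the neighbouring pair in the order whose ranges do not overlap.

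The first comparison asked whether endothelial genes differed between enhancer deletion and wild type. Its fit held genotype alone, without a term for litter or replicate number, so differences between litters add to the spread. No member passed: edgeR's quasi-likelihood test called 0 of 31 at an adjusted p of 0.05, as it did over all 16522 genes tested (0% called), and the members' adjusted p lay between 0.896 and 0.996. At an unadjusted p under 0.05 there was 1 member, where the share over all genes was 5.27%. DESeq2, run without the low-count filter, called 0 of 31 as well, and 0.145% of the 27632 genes it tested. It had 1 member at an unadjusted p under 0.05. In 0 of 31 members were the wild-type and deletion values free of overlap, against 1.80% of all genes. The pan-endothelial genes had a median log2 fold change of 0.06, with 16 of 28 above 0. Over all genes the median was 0.0029, with 50.6% above 0. Per library, the 28 genes summed to between 2096 and 2479 CPM in wild type and between 2112 and 2586 CPM in the deletion. Bulk libraries cannot tell fewer endothelial cells from less RNA per cell.

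The endocardial genes had log2 fold changes of 0.23 (Nfatc1, SE 0.27), 0.23 (Emcn, SE 0.24) and 0.09 (Npr3, SE 0.17), none of which passed (edgeR adjusted p from 0.943 to 0.963). Npr3 stood at 27.0, 20.6, 17.5 and 24.1 CPM in wild types 1 to 4 and at 20.1, 30.3, 22.3, 19.8 and 26.1 CPM in deletions 1 to 5. Both genotypes of Npr3 covered nearly the same range, and its log2 fold change was -0.01 without deletion 2. Nfatc1 was at 62.1, 61.1, 121 and 154 CPM in wild types 1 to 4 and at 99.6, 97.8, 140, 131 and 118 CPM in deletions 1 to 5. Wild types 1 and 2 were thus the lowest libraries for Nfatc1, and wild types 3 and 4 lay among or above the deletions. The median over the 3 endocardial genes was 0.23, but only 0.06 without wild type 2.

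Receptor genes were next. Kdr, the main VEGF receptor gene, had 71.1, 127, 88.6 and 78.3 CPM in wild types 1 to 4 and 103, 113, 118, 115.5 and 96.4 CPM in deletions 1 to 5, a log2 fold change of 0.26 (SE 0.16). Wild type 2 was the highest library for Kdr and the other 3 wild types lay below every deletion; without wild type 2 the log2 fold change was 0.46, again not past the test. Tie1 stood at 150, 188, 126 and 129 CPM in wild types 1 to 4 and at 136, 133, 142, 151 and 106 CPM in deletions 1 to 5. Wild type 2 was highest and deletion 5 lowest for Tie1, with the other libraries of both genotypes intermixed. The log2 fold changes were -0.15 (SE 0.14) for Tie1, 0.18 (SE 0.15) for Flt1, -0.29 (SE 0.23) for Flt4 and 0.12 (SE 0.12) for Tek, and none of these receptors passed.

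The 6 further members with the smallest unadjusted p were Sox7, Ramp2, Fli1, Vwf, Eng and Cldn5. Sox7, a SoxF transcription factor gene, was the member with the smallest p. It stood at 46.9, 36.6, 37.1 and 40.5 CPM in wild types 1 to 4, a mean of 40.3 ± 4.75 (SD, n = 4), and at 48.1, 60.9, 44.5, 53.7 and 45.7 CPM in deletions 1 to 5, a mean of 50.6 ± 6.76 (SD, n = 5). Wild type 1 lay inside the deletion range of Sox7 and the other 3 wild types below it, for a log2 fold change of 0.33 (SE 0.12; unadjusted p = 0.0219, edgeR adjusted p = 0.896). The fold change of Sox7 was 0.40 within litter 1 and 0.34 within litter 2. With litter as a factor it was 0.36 with deletion 5 at its own level (edgeR adjusted p = 0.798). It was 0.34 with deletion 5 read as litter 2 (edgeR adjusted p = 0.603). The other SoxF genes, Sox17 (0.14, SE 0.23) and Sox18 (0.03, SE 0.18), had smaller values. Ramp2, whose product partners the adrenomedullin receptor, stood at 108, 106, 130 and 131 CPM in wild types 1 to 4 and at 142, 129, 137, 137 and 128 CPM in deletions 1 to 5. Wild types 1 and 2 were its lowest libraries, and the log2 fold change was 0.18 (SE 0.09). Fli1, an ETS factor gene, was at 50, 44.9, 40.9 and 39.2 CPM in wild types 1 to 4 and at 47.6, 54.6, 43.9, 51.5 and 50 CPM in deletions 1 to 5, a log2 fold change of 0.18 (SE 0.10). Eng, the TGF-beta co-receptor endoglin, was at 117, 129, 154 and 123 CPM in wild types 1 to 4 and at 131, 151, 146, 163 and 143 CPM in deletions 1 to 5, a log2 fold change of 0.16 (SE 0.10). For both of these genes the genotypes overlapped.

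Vwf and Cldn5 had the lowest fold changes, and in both wild type 2 was the highest library. Vwf, the clotting protein of endothelium and platelets, was at 50.8, 90.4, 27.1 and 38.6 CPM in wild types 1 to 4 and at 36.6, 32.9, 38.9, 47.2 and 19.2 CPM in deletions 1 to 5. Its log2 fold change was -0.57 (SE 0.34), and -0.15 without wild type 2. Platelet and megakaryocyte markers, 7 genes, summed to 51.2 and 80.4 CPM in wild types 1 and 2, with Gp6 at 0 in some libraries. They summed to 42.1 CPM in deletion 5, the lowest library for Vwf, and to between 20.7 and 27.7 CPM in the others. The part of these markers in the Vwf values was not tested. Cldn5, the tight junction claudin of endothelium, was at 27.6, 52.6, 10.5 and 9.85 CPM in wild types 1 to 4 and at 21.2, 22.2, 12.5, 13.0 and 9.46 CPM in deletions 1 to 5, with a log2 fold change of -0.68 (SE 0.49) and of -0.03 without wild type 2. All 4 libraries of litter 1 lay above the other 5 for Cldn5, and within litter 1 both wild types lay above both deletions. The remaining 17 members lay between -0.21 and 0.25.

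**Figure D2:**
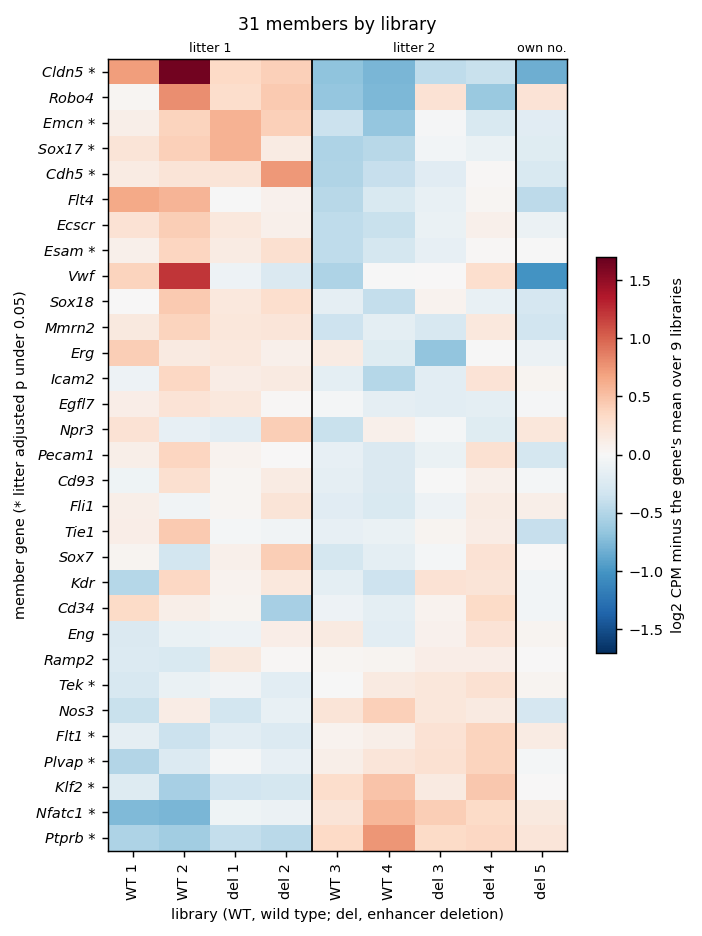
Heat map of the 31 members (rows) in the 9 libraries (columns, ordered by litter and genotype), coloured by log2 CPM minus the gene's mean over the libraries; asterisks mark an adjusted p under 0.05 between litters. Genes at the top, such as Cldn5 and Emcn, are higher in litter 1, and genes at the bottom, such as Ptprb and Nfatc1, are higher in litter 2.

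The second comparison set litter 2 against litter 1, with genotype as a covariate and deletion 5 at a level of its own. Here 11 of the 31 members passed edgeR's test at an adjusted p of 0.05, or 35.5%, where 9.65% of all 16522 genes were called. The members split in direction: 6 were higher in litter 2 (5.48% of all genes were called higher) and 5 were lower (4.17% were called lower). At an unadjusted p under 0.05 there were 18 members, beside 27.2% of all genes. The values of the litters did not overlap in 14 of 31 members, against 19.5% of all genes. Over the 31 members the median log2 fold change was -0.19, and -0.03 over all genes. DESeq2 called 18 of 31, beside 11.2% of the 28085 genes it tested. That wider set includes genes with few reads, so this share is not on the same footing as that of edgeR. With deletion 5 read as litter 2, 10 members were called and Tek was not (edgeR adjusted p = 0.0551). The count rested in part on single libraries. It was 3 without wild type 3 (2.03% of all genes called), 3 without wild type 4 (2.31%) and 6 without deletion 3 (2.57%). Omitting each of the 9 libraries in turn kept the calls of Ptprb and Klf2 every time and those of Nfatc1 and Emcn in 8 of 9. Deletion 5 has a level of its own, so its omission leaves the litter contrast nearly as it was and cannot test these calls. Litter cannot be told apart here from anything else that was shared within a litter.

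Of the endocardial genes, Nfatc1 rose and Emcn fell from litter 1 to litter 2, while Npr3 did not pass. Nfatc1 had a mean of 80.2 ± 21.4 CPM (SD, n = 4) in litter 1 and 137 ± 13.9 CPM (SD, n = 4) in litter 2, a log2 fold change of 0.81 (SE 0.15, edgeR adjusted p = 0.0156). Emcn was at 27.0, 32.8, 37.9 and 33.4 CPM in wild types 1 and 2 and deletions 1 and 2, and at 19.5, 15.9, 24.8 and 21.1 CPM in wild types 3 and 4 and deletions 3 and 4. All 4 libraries of litter 1 thus lay above all 4 of litter 2 for Emcn, a log2 fold change of -0.70 (SE 0.12, edgeR adjusted p = 0.0137). Npr3 was at -0.22 (SE 0.17, edgeR adjusted p = 0.441). The sum of the 3 endocardial genes equalled 5.13% and 4.62% of the pan-endothelial sum in wild types 1 and 2 and between 6.64% and 9.21% in the other libraries. Nfatc1 is the largest part of that sum in every library. In wild types 1 and 2, Emcn (27.0 and 32.8 CPM) lay above every litter 2 library, and Npr3 was at 27.0 and 20.6 CPM. Cushion mesenchyme markers were lowest in the same 2 libraries, at 1143 and 940 CPM against 2038 to 2739 CPM elsewhere, and their part in the Nfatc1 values was not tested.

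**Figure D3:**
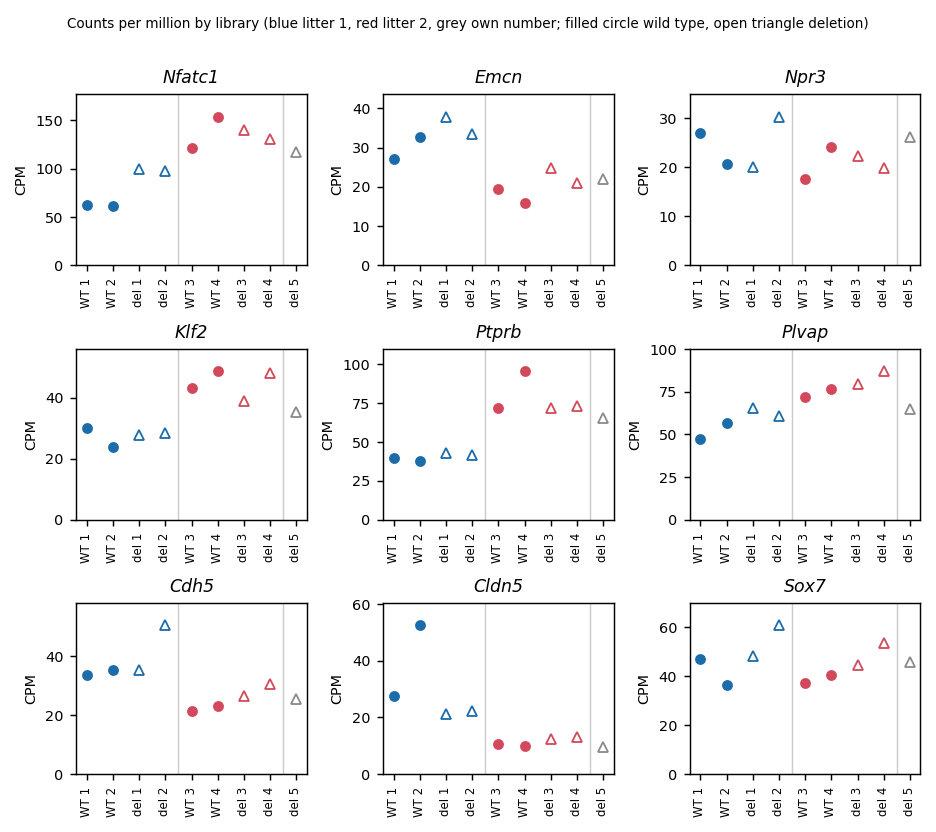
CPM of 9 members in each library, from 0 upward; blue marks litter 1, red litter 2 and grey deletion 5, with filled circles for wild type and open triangles for the deletion. Klf2, Ptprb and Plvap are higher in every litter 2 library than in every litter 1 library, Emcn, Cdh5 and Cldn5 are lower, and Sox7 and Npr3 overlap.

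The pan-endothelial genes that rose in litter 2 were Ptprb, Klf2, Plvap, Flt1 and Tek. Ptprb, the phosphatase that acts on Tie2 and VE-cadherin, stood at 39.8, 37.8, 43.2 and 41.4 CPM in wild types 1 and 2 and deletions 1 and 2, and at 72.2, 95.8, 71.6 and 73.1 CPM in wild types 3 and 4 and deletions 3 and 4. The litter 1 values of Ptprb lay close together and far below those of litter 2, a log2 fold change of 0.94 (SE 0.11, edgeR adjusted p = 0.00512). Klf2, the flow-responsive transcription factor gene, was at 30.1, 23.8, 27.9 and 28.4 CPM in litter 1 and at 43.2, 48.9, 39.0 and 48.3 CPM in litter 2, in the same order of libraries, a log2 fold change of 0.70 (SE 0.12, edgeR adjusted p = 0.0113). Plvap, which forms the diaphragms of endothelial fenestrae and caveolae, was at 47.4, 56.8, 65.6 and 60.6 CPM in litter 1 and at 71.7, 76.9, 79.8 and 87.3 CPM in litter 2 (log2 fold change 0.46, SE 0.09, edgeR adjusted p = 0.0183). Both of these genes had no overlap between litters. Flt1 was at 58.3, 50.1, 57.3 and 55.2 CPM in litter 1 and at 67.3, 69.4, 77.2 and 84.5 CPM in litter 2 (log2 fold change 0.43, SE 0.09, edgeR adjusted p = 0.0204). Tek, at 208, 232, 241 and 222 CPM in litter 1 and 250, 280, 287 and 302 CPM in litter 2, had the smallest difference of the 11, a log2 fold change of 0.31 (SE 0.08, edgeR adjusted p = 0.046). It stayed called in only 2 of 9 single-library omissions, counting that of deletion 5, which cannot test the call.

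The pan-endothelial genes that fell were Cldn5, Cdh5, Sox17 and Esam. Cldn5 had the largest difference, from 30.9 ± 14.7 CPM (SD, n = 4) in litter 1 to 11.5 ± 1.53 CPM (SD, n = 4) in litter 2, a log2 fold change of -1.37 (SE 0.28, edgeR adjusted p = 0.0215). Cdh5, which encodes VE-cadherin, was at 33.5, 35.4, 35.2 and 50.6 CPM in litter 1 and at 21.3, 23.0, 26.6 and 30.6 CPM in litter 2 (log2 fold change -0.61, SE 0.13, edgeR adjusted p = 0.0215). Its highest library was deletion 2. Sox17, a SoxF gene of arterial endothelium and endocardium, was at 23.5, 26.7, 30.4 and 22.2 CPM in litter 1 and at 14.0, 14.6, 19.6 and 18.7 CPM in litter 2 (log2 fold change -0.64, SE 0.14, edgeR adjusted p = 0.0264). Esam, an adhesion molecule of endothelial junctions, was at 78.1, 95.1, 81.0 and 89.0 CPM in litter 1 and at 54.6, 59.8, 66.8 and 74.9 CPM in litter 2 (log2 fold change -0.43, SE 0.11, edgeR adjusted p = 0.0404). When single libraries were omitted, Sox17 stayed called in 2 of 9 fits and Esam in 3 of 9, in both cases counting the fit without deletion 5. The junction genes Cldn5, Cdh5 and Esam were thus among those that fell, while the junction and surface genes Pecam1 (-0.19, SE 0.13) and Icam2 (-0.28, SE 0.15) did not pass.

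Litter calls were absent for 20 members, of which 16 had a log2 fold change below 0. Robo4, a receptor that stabilises vessels, was the lowest of them at -0.83 (SE 0.25, edgeR adjusted p = 0.069), and Nos3, the endothelial nitric oxide synthase gene, the highest at 0.41 (SE 0.13, edgeR adjusted p = 0.0742). Of the receptors, Flt4 was at -0.53 (SE 0.18), Tie1 at -0.14 (SE 0.12) and Kdr at -0.07 (SE 0.17), and Kdr changed sign, to 0.16, without wild type 2. The matrix and surface genes Mmrn2 (-0.38), Ecscr (-0.45), Egfl7 (-0.27) and Cd93 (-0.17), and the factor genes Sox18 (-0.39) and Erg (-0.37), did not pass. Cd34 was at 0.04.

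Deletion 5 took no part in the litter contrast. Among the 11 called members its log2 CPM was nearer to the mean of deletions 3 and 4 than to that of deletions 1 and 2 in 9, with Tek and Plvap nearer to deletions 1 and 2. Over all 31 members it was nearer to litter 2 in 16. No share over all genes is given beside these counts, so they do not place deletion 5 in a litter.

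**Figure D4:**
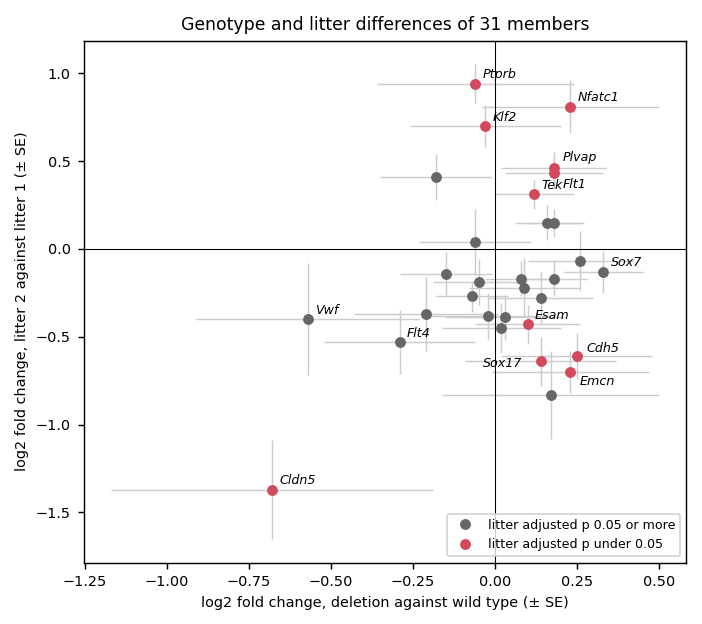
Log2 fold change between genotypes (horizontal, deletion against wild type) and between litters (vertical, litter 2 against litter 1) for the 31 members, each with its SE; red marks the 11 with an adjusted p under 0.05 between litters. The litter values spread from -1.37 (Cldn5) to 0.94 (Ptprb), and no member passed along the genotype axis.

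Upstream sequence is shown for the members called between litters that a script found in the RefSeq promoter table (14 of 31 members, 5 of the 11) and in which it matched a motif. The 250 bases before the start of Klf2 (GRCm38.p6, chr8:72318812-72319061, plus strand), Flt1 (chr5:147726012-147726261, minus strand) and Emcn (chr3:137340828-137341077, plus strand) were searched on both strands for AGGAAG and GGAAGT, cores bound by ETS factors, which overlap each other when joined, and for the MEF2 consensus. Capitals mark the matches.
Klf2: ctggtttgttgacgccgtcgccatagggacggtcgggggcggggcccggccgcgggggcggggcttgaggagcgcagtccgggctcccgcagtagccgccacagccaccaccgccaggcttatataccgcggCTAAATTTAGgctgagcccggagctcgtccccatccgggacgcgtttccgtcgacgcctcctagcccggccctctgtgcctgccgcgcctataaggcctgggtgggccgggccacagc
Flt1: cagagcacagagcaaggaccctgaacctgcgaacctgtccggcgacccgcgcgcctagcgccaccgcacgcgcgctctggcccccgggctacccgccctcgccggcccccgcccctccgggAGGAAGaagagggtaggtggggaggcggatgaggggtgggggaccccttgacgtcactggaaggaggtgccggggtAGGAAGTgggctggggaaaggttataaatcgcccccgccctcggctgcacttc
Emcn: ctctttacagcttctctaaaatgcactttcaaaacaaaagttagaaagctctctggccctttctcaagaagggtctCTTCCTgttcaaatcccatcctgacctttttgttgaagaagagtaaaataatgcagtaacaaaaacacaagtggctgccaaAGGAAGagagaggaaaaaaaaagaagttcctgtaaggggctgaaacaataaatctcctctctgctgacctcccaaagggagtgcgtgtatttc
The Klf2 window held 1 MEF2 match, whose first base lies at -118 from the start, as did 2.92% of all 32851 windows. Flt1 and Emcn, which moved in opposite directions between litters, each held AGGAAG, found in 29.5% of all windows, and Flt1 also GGAAGT, found in 19.7%. Of the 14 members in the table, 8 held AGGAAG, 5 GGAAGT and 2 the MEF2 motif. A member was counted if any window of its symbol matched, so these counts are not like for like with the shares of single windows. The windows of Cldn5 and Tek, which were also called between litters, held 0 matches. Matches describe letters only.

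The third comparison tested whether the genotype difference itself differed between the litters, over the 8 libraries of litters 1 and 2. No member passed edgeR's interaction test (0 of 31, where 0.0123% of all genes were called), with a lowest adjusted p of 0.355. At an unadjusted p under 0.05 there were 7 members, beside 8.15% of all genes. DESeq2 called 2 of 31, beside 0.640% of the 27818 genes it tested. Without the low-count filter, edgeR called 5 (Cd34, Cldn5, Flt4, Nfatc1 and Vwf), beside 2.69% of 27818 genes. Both of these wider sets include genes with few reads. The members named by DESeq2 were Flt4 (interaction 0.88, SE 0.23, DESeq2 adjusted p = 0.0204) and Vwf (1.40, SE 0.39, DESeq2 adjusted p = 0.0405). Flt4 was at 55.7 and 52.8 CPM in wild types and at 35.4 and 37.2 CPM in deletions of litter 1, and at 25.5 and 29.6 CPM in wild types and 32.4 and 36.2 CPM in deletions of litter 2. The 2 wild types of litter 1 were the highest libraries for Flt4 and those of litter 2 lay below the deletions beside them, giving log2 fold changes of -0.56 (SE 0.16) and 0.31 (SE 0.13). Marker lists of other cells moved in the same contrast. The erythroid list had 2 of 8 genes called by edgeR, both higher (adjusted p = 0.0333), with all 8 at an unadjusted p under 0.05 and a median interaction of 3.05; these 2, Hbb-bs and Hbb-bt, were the only calls over all genes and are named after their values were seen. Cushion mesenchyme genes had 7 of 8 at an unadjusted p under 0.05 (median -1.16) and macrophage genes 5 of 8 (median 1.05), with 0 called in either list. Their part in the interaction values of Flt4, Vwf, Cldn5 and Nfatc1 was not tested.

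Within litters, edgeR called 0 of 31 members in either. At an unadjusted p under 0.05 there were 4 members within litter 1 and 11 within litter 2. The shares over all genes are not given here for these counts, so they are not read further. Nfatc1 had a log2 fold change of 0.70 (SE 0.14, edgeR adjusted p = 0.537) within litter 1 and -0.03 (SE 0.11) within litter 2, Vwf -1.0 (SE 0.29) and 0.39 (SE 0.18), Cldn5 -0.87 (SE 0.32) and 0.32 (SE 0.17). Kdr was at 0.15 (SE 0.28) within litter 1 and at 0.48 (SE 0.09, edgeR adjusted p = 0.217) within litter 2, where 88.6 and 78.3 CPM in wild types 3 and 4 lay below 118 and 115 CPM in deletions 3 and 4. The deletion was higher within both litters in 14 members, lower within both in 3, and opposite in sign in 14, again without a share over all genes beside them. The median over the 31 was 0.01 within litter 1, with 17 above 0, and 0.24 within litter 2, with 25 above 0. Over the 3 endocardial genes the median was 0.27 within litter 1 and 0.02 within litter 2.

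Lists of vessel subtypes, ligands and regulators were read from the same fits. Some hold members already described: Emcn (venous), Flt4 (lymphatic), Klf2 and Nos3 (flow response), Erg, Fli1, Sox7, Sox17 and Sox18 (transcription factors) and Tie1 (junction and signalling). Between genotypes none of their members passed edgeR's test. Between litters, counts are to be read against the 9.65% of all genes called, and a list with 1 or 2 calls stands near that share. The venous and coronary list had 3 of 7 called, all lower in litter 2. Aplnr, the apelin receptor of venous and sprouting coronary endothelium, fell from 73.7, 88.4, 63.3 and 79.1 CPM in the libraries of litter 1 to 15.1, 17.2, 30.8 and 30.6 CPM in litter 2 (log2 fold change -1.77, SE 0.22, edgeR adjusted p = 0.00583), and Nr2f2, a venous transcription factor gene, was at -0.91 (SE 0.22, edgeR adjusted p = 0.0377). Emcn, the third, is the member call given above. Among arterial genes 2 of 12 were called, both higher: Notch1 (0.48, SE 0.11) and the netrin receptor gene Unc5b (0.47, SE 0.11). The 12 split into 6 higher and 6 lower in litter 2, with a median of -0.02. Gja5 was at -0.66 (SE 0.21, edgeR adjusted p = 0.0845) and did not pass. Lymphatic genes had 1 of 6 tested called and VEGF and angiopoietin ligands 1 of 8, in both cases Vegfc, the ligand of Flt4, at 0.72 (SE 0.12, edgeR adjusted p = 0.0121). Flow response genes had 1 of 8 called, the member Klf2. Endothelial transcription factors had 4 of 17 tested called, Ets1 (0.49, SE 0.07), Foxc2 (0.68, SE 0.14) and Foxc1 higher and the member Sox17 lower. Junction and signalling genes had 1 of 14, Acvrl1, the ALK1 receptor gene, at -1.12 (SE 0.30, edgeR adjusted p = 0.0491). Further endocardial genes had 3 of 8 called, all higher, among them Hapln1, a hyaluronan link protein gene that cushion tissue also expresses, at 1.84 (SE 0.37). That list as a whole split in direction, with 5 higher and 3 lower in litter 2 and a lowest log2 fold change of -1.35.

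Markers of other cells moved with litter as well, again beside 9.65% of all genes called. Of 8 cushion mesenchyme genes 5 were called, all higher in litter 2, among them Sox9 (1.54, SE 0.33) and Vcan (1.58, SE 0.33), with summed levels of 940 to 2378 CPM in litter 1 and 2203 to 2697 CPM in litter 2. The sums differed mainly among wild types, at 1143 and 940 CPM in litter 1 against 2226 and 2697 CPM in litter 2, while the deletions were at 2378 and 2038 CPM against 2581 and 2203 CPM. Macrophage and leukocyte genes had 6 of 8 called, all lower, among them Mrc1 (-2.16, SE 0.20), with sums of 154 to 300 CPM in litter 1 and 62.0 to 105 CPM in litter 2 and no marker at 0 in any library. The pan-endothelial sum covered 2112 to 2479 CPM in litter 1 and 2096 to 2586 CPM in litter 2, and Cd34 and Tek weigh most in it. The mean log2 CPM of the same 28 genes weighs each gene alike. It was 5.71, 5.91, 5.74 and 5.75 in wild types 1 and 2 and deletions 1 and 2. In wild types 3 and 4 and deletions 3 and 4 it was 5.52, 5.53, 5.67 and 5.80. What part the other cells had in the litter differences of the members was not tested.

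**Figure D5:**
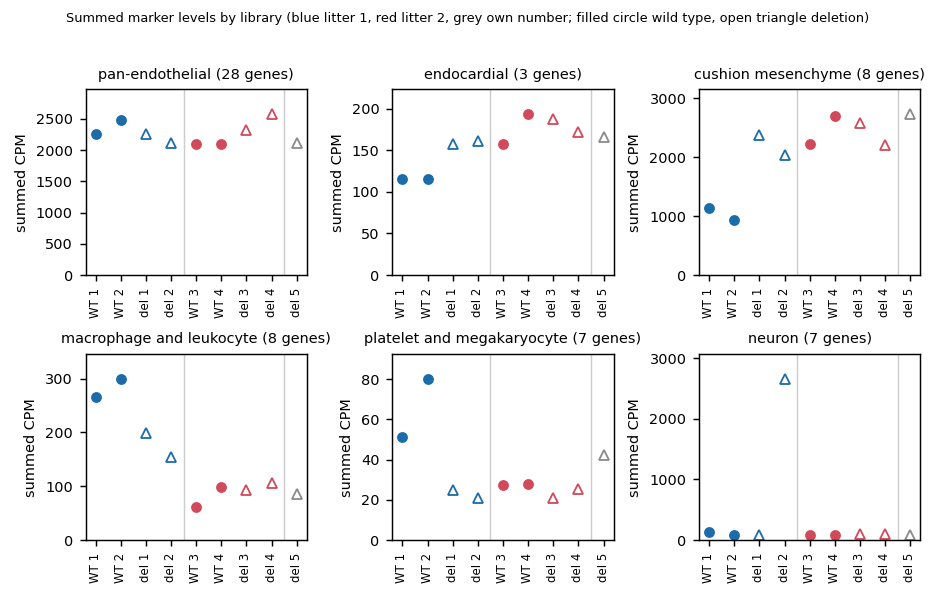
Summed CPM of 6 marker lists in each library, from 0 upward, with blue for litter 1, red for litter 2 and grey for deletion 5, filled circles for wild type and open triangles for the deletion. The pan-endothelial sum stays between 2096 and 2586 CPM, and deletion 2 stands at 2668 CPM for neuron genes. Wild types 1 and 2 are lowest for the summed endocardial and cushion genes and highest for macrophage genes. Nfatc1 makes up the largest part of the endocardial sum, and Emcn and Npr3 are not lowest in wild types 1 and 2.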

How the data were processed

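The authors deposited 1 file of raw read counts per library, over 48397 gene symbols. The submitters' processing notes name STAR 2.5.0c, Picard, HTSeq 0.6.0, DESeq2 and mm10; no source used here gives their order, the annotation or the strand setting. Without strand, 7 members that share exon bases with a gene on the opposite strand (Cd34, Ecscr, Egfl7, Eng, Nos3, Npr3 and Sox17) can hold its reads. The 5 rows naming no gene (20.65% to 23.52% of reads) were left out.

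The test was edgeR 4.0.16 under R 4.3.3 (robust quasi-likelihood, TMM, filterByExpr with a minimum count of 10, two-sided, Benjamini-Hochberg over all genes). DESeq2 1.42.0 and limma 3.58.1 (voom, sample weights) were alternatives. The procedure was also run on simulated counts with planted changes. Its recovery of small changes is not given here, so that run does not bear on the members without calls. Exon lengths come from GENCODE M21, which held all 31 members. No pair of replicates agreed within sampling noise. The labels do not say that each sample is 1 embryo, so p-values measure only sample-to-sample spread, part of which may be technical.

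For libraries sharing a number, deviations from the group mean had correlations of 0.242, 0.137, 0.227 and 0.176. Libraries with different numbers were not compared in this way, so the values cannot show that replicate numbers pair the samples. The block fit took the numbers as pairs, and deletion 5 is then alone and adds nothing to it. Numbers 1 and 2 are litter 1, and 3 and 4 are litter 2, so number and litter are not separate.

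Members, lists and tests were chosen with earlier results of these data known. Values by library are given for the endocardial and receptor genes and the members with the smallest genotype or litter p; of other lists, up to 3 genes are named. Foxc1 was named after its values were seen.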

Additional observations from a re-analysis of the deposited data

Results flagged for a closer look

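Robo4, the vessel-stabilising receptor gene, stood at 8.27 CPM in deletion 4, while the other 4 deletions lay between 15.0 and 17.4 CPM. The gap took 0.728 of the range of the group, above the limit of 0.71 for 5 samples. It was the 1 flag among 62 groups of values screened, where chance alone flags about 1 in 20.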

How the results depend on the processing

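No member was called between genotypes in any alternative run, omission of each library included; the replicate block gave 0 of 31 called and changed no call, with medians of 0.12 (pan-endothelial) and 0.32 (endocardial). The pan-endothelial median of 0.06 ran from 0.02 to 0.12 when a library was left out and was 0.24 within litter 2 without deletion 5. The endocardial median of 0.23 ran from 0.06 to 0.23; it was 0.08 with limma-voom, 0.02 within litter 2 and 0.13 within litter 2 with deletion 5. Between litters, the count of 11 members was 18 with DESeq2 and from 3 to 11 when a library was left out. The 11 came without deletion 5, which takes no part in that contrast. In the interaction test 0 became 2 with DESeq2 and 5 without the low-count filter, and stayed 0 when a library was left out. Signs of genotype fold changes reversed with limma-voom for Flt4 (0.04) and Cldn5 (0.04); within litter 2 without deletion 5 for Nfatc1 (-0.03), Flt4 (0.31), Tie1 (0.20), Vwf (0.39) and Cldn5 (0.32); and with deletion 5 for Nfatc1 (-0.09), Flt4 (0.19), Tie1 (0.07), Vwf (0.09) and Cldn5 (0.19). Npr3 ran from -0.01 to 0.19 and the litter value of Kdr from -0.18 to 0.16 when a library was left out. The fits within a litter hold fewer samples. The cause of the other differences was not tested.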

Other observations

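Lists of other tissues were read from the same edgeR fits, and between genotypes none of their genes passed. Between litters, where 9.65% of all genes were called, 1 of 5 epicardium genes was called, Msln, the mesothelin gene, at a log2 fold change of -2.25 (SE 0.45), with 96.5 and 110 CPM in wild types 1 and 2 and at most 30.8 CPM elsewhere. Of 8 erythroid genes 1 was called, the adult beta globin gene Hbb-bs at -4.34 (SE 0.82), with 1270 and 1690 CPM in wild types 1 and 2 and at most 321 CPM elsewhere. In the test of genotype by litter, 2 of the 8 erythroid genes were called (edgeR adjusted p = 0.0333). Platelet genes had 1 of 7 called, Pf4 at -0.96 (SE 0.16). Heart muscle (0 of 8), smooth muscle (0 of 6) and neuron (0 of 7) genes had no calls, with 1, 3 and 3 at an unadjusted p under 0.05.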
